A study of Homo sapiens with 6 samples.

Results

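The HERV-K groups other than HML-2 were followed in 6 RNA libraries of H1 cells, an established human embryonic stem cell line. Members were taken by name alone: every name that begins with HERVK and has further letters, and the LTR3, LTR13, LTR14, LTR22, MER9 and MER11 names. This gave 30 of 1047 sequences in the deposited tables, 7 internal parts and 23 LTRs. All 30 had enough reads to be tested. The internal parts of HML-1 and HML-9 are spelled HERV-K14I and HERV-K14CI in the tables. Their hyphen leaves these 2 outside the naming rule, and they are used below only to set the LTR14 names against an internal part.

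All 6 libraries came from cells, at passages 40 to 60, that carried an inducible hairpin (shEXOSC3) against EXOSC3, a subunit of the RNA exosome, and grew in puromycin and blasticidin. Doxycycline (dox) switches the hairpin on. The cells also held an empty vector (PB; 1 library without and 1 with dox) or a hairpin-resistant EXOSC3 transgene (EXOSC3r; clone 1 and clone 2, each with 1 library per arm). Each PB arm therefore has no replicate, and each EXOSC3r arm has n = 2 clones. The labels do not say whether the PB line is 1 clone. EXOSC3 itself was not analysed here, so neither its loss nor its return was checked.

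HERV-K is the betaretrovirus-like class of human endogenous retroviruses, remnants of germline infections, and is divided into the groups HML-1 to HML-10 by the sequence of their polymerase gene. A full copy has an internal part, with gag, pro, pol and env genes or their remains, between a long terminal repeat (LTR) at each end. The LTR holds the promoter and the polyadenylation signal, and many copies have been reduced by recombination to a solitary LTR. The groups differ in LTR: MER9 belongs to HML-3, LTR13 to HML-4, LTR22 to HML-5, LTR3 to HML-6, MER11D to HML-7, MER11A to MER11C to HML-8, and the LTR14 names to HML-1, HML-9 and HML-10. HML-2, with the internal part HERVK and the LTR5 names, holds the youngest copies and is known to be transcribed in human pluripotent cells. The RNA exosome trims and degrades RNA from its 3' end, including many short-lived nuclear transcripts.

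The tables hold repeat consensus sequences with ACTB and GAPDH, so cell identity could not be checked by gene markers. HERVH, a retrovirus transcribed in human pluripotent cells, was at 20519 to 35678 CPM (each library's counts brought to 1 common total) and ranked 6 of 699 tested sequences by mean. Assigned counts totalled 3745260 to 5260182 per library, which is not the sequencing depth. The members together took 0.809% (95% Clopper-Pearson interval 0.802% to 0.817%, counting error only) in clone 1 with dox and 1.28% (1.27% to 1.29%) in PB cells with dox, the lowest and highest of the 6. Alu took 37.3% without and 33.0% with dox in PB cells, 45.4% and 52.5% in clone 1, and 41.8% and 40.1% in clone 2. Clone 1 with dox thus had the highest Alu share and the lowest share of members. CPM values below are scaled by TMM, which centres each library on the bulk of its sequences and not on Alu.

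Levels were compared between sequences as CPM per kb of effective length, over the 6 libraries. Among the members MER9 was highest, with a median of 2173 CPM per kb (range 2077 to 2288). It was followed by MER11B at 1297 CPM per kb (range 1208 to 1358) and LTR13 at 1279 CPM per kb (range 1131 to 1502), whose ranges overlap. MER11C, at 1044 CPM per kb (range 953 to 1090.0), and MER11A, at 1019 CPM per kb (range 961 to 1038), came next and overlap as well. All 5 are LTRs of HML-3, HML-4 and HML-8. LTR3A, an HML-6 LTR, stood at 613 CPM per kb (range 541 to 889). The highest internal part was HERVK9I of HML-3, at 299.6 CPM per kb (range 281 to 317), and it ranked 9 of 30. HERVK22I of HML-5 followed at 137 CPM per kb (range 125 to 141), then HERVK11I of HML-8 at 91.9 CPM per kb (range 84.8 to 121) and HERVK3I of HML-6 at 67.0 CPM per kb (range 55.8 to 77.2). The 3 lowest members were HERVKC4 of HML-10, a group with a known copy inside the complement C4 genes, at 16.0 CPM per kb (range 13.6 to 17.4), HERVK11DI of HML-7 at 7.24 CPM per kb (range 6.37 to 8.34), and HERVK13I of HML-4 at 2.46 CPM per kb (range 1.54 to 2.84). For comparison, HERVK of HML-2 stood at 764 CPM per kb (range 556 to 1081) and LTR5_Hs, its youngest LTR, at 1712 CPM per kb (range 1475 to 2469).

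**Figure D1:**
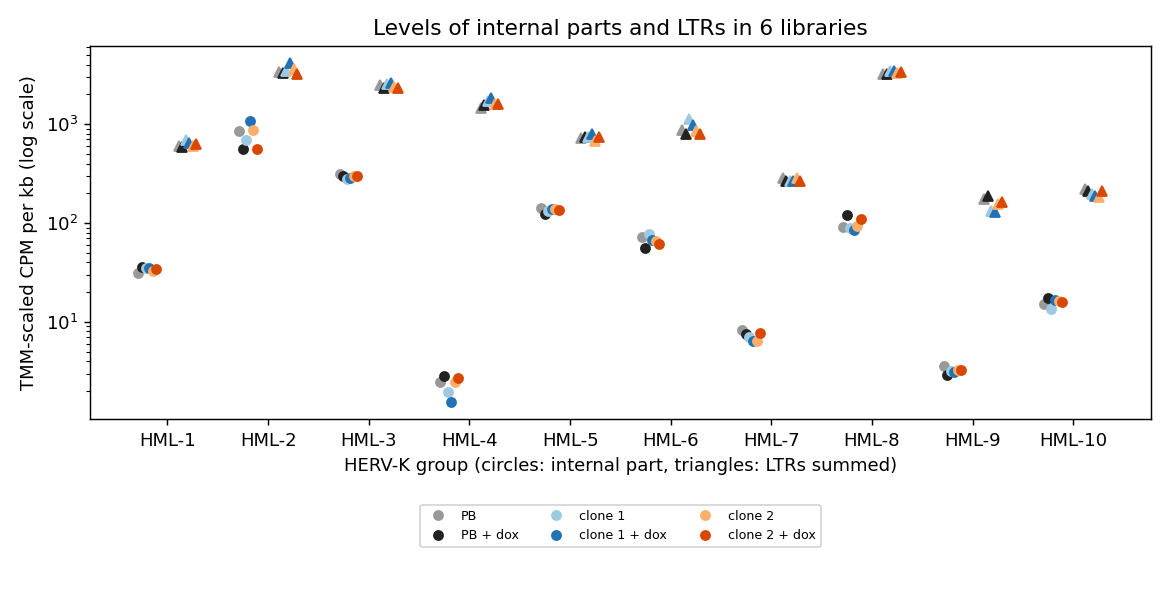
TMM-scaled CPM per kb of effective length (log axis) of the internal part (circles) and the summed LTRs (triangles) of each HERV-K group, 1 point per library. The LTRs lie above the internal part in every group and library shown, and the HML-4 gap is the widest.

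In every library and group, the LTRs summed had more counts per kb than the internal part, but by very different factors. The ratio of internal part to LTRs was highest in HML-5, with a median of 18.2% (16.7% to 20.5%), and in HML-3, with 12.6% (10.98% to 12.9%). It was 7.84% (6.79% to 8.76%) in HML-10, 7.40% (6.83% to 8.44%) in HML-6 and 5.39% (5.04% to 6.08%) in HML-1. The ratio was lower in HML-8, 2.81% (2.47% to 3.71%), HML-7, 2.72% (2.26% to 2.91%), and HML-9, 2.07% (1.54% to 2.38%). In HML-4 it was only 0.161% (0.0830% to 0.180%): LTR13 was among the most abundant members, while HERVK13I had 48.0 to 125 estimated counts per library. HML-2, at 21.98% (17.01% to 25.9%), was above the other groups by its median, although its range overlaps that of HML-5. The HML-1 and HML-9 ratios use the internal parts outside the naming rule. Reads of a solitary LTR, of a full copy and of a longer transcript that runs through an LTR all count for the LTR.

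In PB cells, the internal part and the LTRs of HML-8 differed more in their response to dox than those of the 6 other groups with an internal part among the members. HERVK11I, the internal part, was at 707 (no dox) and 941 CPM (dox) in PB cells, 689 and 660.5 CPM in clone 1, and 727 and 855 CPM in clone 2. The PB and clone 2 libraries with dox were the highest, and the other 4 lay close together. The LTRs of HML-8 summed were at 3179 (no dox) and 3220.0 CPM (dox) in PB cells, 3404 and 3405 CPM in clone 1, and 3313 and 3331 CPM in clone 2. Their highest over lowest ratio was 1.07, so on the TMM scale the LTRs of HML-8 barely differed between libraries. Under total counts and under ACTB and GAPDH scaling they differed more. Among these 3 LTRs, MER11A was at 979 (no dox) and 932 CPM (dox) in PB cells, 980.3 and 999 CPM in clone 1, and 993 and 990.0 CPM in clone 2. MER11B was at 1336 (no dox) and 1304 CPM (dox) in PB cells, 1460.4 and 1406 CPM in clone 1, and 1399.8 and 1397 CPM in clone 2. Neither had the order of HERVK11I. MER11C was at 869 (no dox) and 989 CPM (dox) in PB cells, 959 and 989.7 CPM in clone 1, and 923 and 943 CPM in clone 2, higher with dox in each line but by little in the clones, and in clone 1 lower with dox under total counts and under ACTB and GAPDH scaling. The internal to LTR ratio accordingly went from 2.83% to 3.71% in PB cells, from 2.58% to 2.47% in clone 1 and from 2.80% to 3.27% in clone 2. This ratio was above all others of HML-8 in the PB and clone 2 libraries with dox. Outside the groups compared here, the ratio in PB cells went from 24.8% to 17.0% with dox in HML-2. In HML-9 it went from 2.06% to 1.54%, so a move of this ratio in PB cells was not particular to HML-8. HERVK11I rested on 2584 to 5210.0 counts per library.

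HML-6 lay lower with dox in all 3 lines on the TMM scale, in its internal part and in its most abundant LTR. HERVK3I was at 517 (no dox) and 396 CPM (dox) in PB cells, 547 and 479 CPM in clone 1, and 469.8 and 437 CPM in clone 2. The difference was widest in PB cells, whose library with dox was the lowest of the 6. LTR3A was at 198 (no dox) and 178 CPM (dox) in PB cells, 289 and 227 CPM in clone 1, and 204 and 180.0 CPM in clone 2, and on this scale clone 1 was above the other lines with and without dox. The 3 LTR3 names summed were at 280.3 (no dox) and 257 CPM (dox) in PB cells, 367 and 318 CPM in clone 1, and 280.1 and 258 CPM in clone 2, an order set mostly by LTR3A. LTR3B, at 52.8 to 67.7 CPM, and LTR3, at 21.8 to 24.7 CPM, did not share that order. These directions depend on the scaling: with total counts HERVK3I had a log2 change of 0.0079 in clone 2, with ACTB and GAPDH scaling 0.031, and LTR3A had 0.016 in PB cells with the latter.

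**Figure D2:**
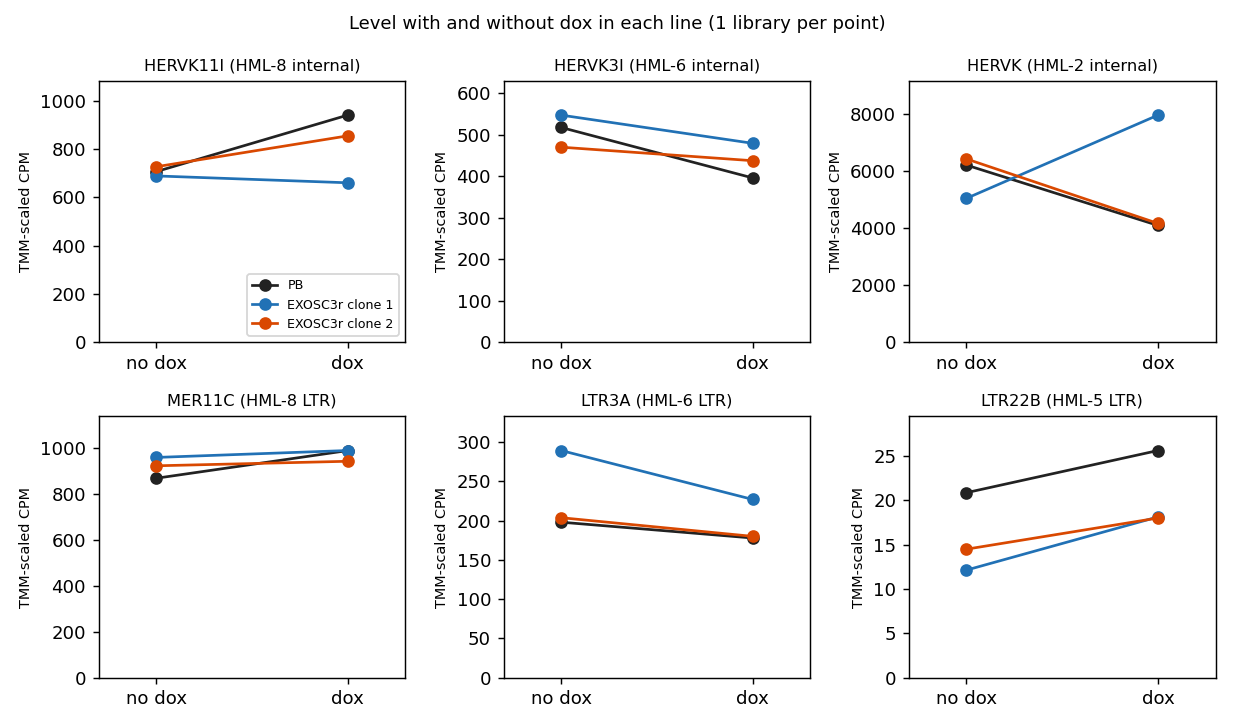
TMM-scaled CPM without and with dox in each line for HERVK11I, HERVK3I, MER11C, LTR3A, LTR22B and, for comparison, HERVK of HML-2; each point is 1 library and each line joins the arms of 1 cell line. The HERVK11I line goes up in the PB line and clone 2 only, that of HERVK goes up only in clone 1, and that of HERVK3I goes down in all 3 (in clone 2 not under total counts or ACTB and GAPDH scaling).

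HML-5 had the second most abundant internal part per kb, and it differed little between libraries on the TMM scale. HERVK22I was at 941 (no dox) and 831 CPM (dox) in PB cells, 887 and 915 CPM in clone 1, and 927 and 910.1 CPM in clone 2, and the PB library with dox was the lowest. Its 8 LTRs were all scarce, with means under 60 CPM each. Summed, they were at 259 (no dox) and 271 CPM (dox) in PB cells, 269 and 286 CPM in clone 1, and 245 and 264 CPM in clone 2. On the TMM scale the sum was slightly higher with dox in each line. In clone 1 it was lower with dox under total counts and under ACTB and GAPDH scaling. The widest spread of any member was that of LTR22B, at 20.9 (no dox) and 25.6 CPM (dox) in PB cells, 12.1 and 18.1 CPM in clone 1, and 14.5 and 18.0 CPM in clone 2, a highest over lowest ratio of 2.11. Both PB libraries lay above all 4 clone libraries on the TMM scale. Each line was higher with dox under TMM, total counts, DESeq2 size factors and ACTB and GAPDH scaling. LTR22B rested on only 49.5 to 142 estimated counts per library. Reads may have been divided between it and its relatives by name, LTR22B1 (219.9 to 323 counts) and LTR22B2 (119 to 186 counts), neither of which had its order.

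HML-3, the group with the most abundant internal part and the most abundant LTR per kb, differed little between libraries on the TMM scale. HERVK9I was at 1856 (no dox) and 1758 CPM (dox) in PB cells, 1645 and 1675 CPM in clone 1, and 1756 and 1770.1 CPM in clone 2, a highest over lowest ratio of 1.13. MER9 was at 788 (no dox) and 739 CPM (dox) in PB cells, 783 and 799 CPM in clone 1, and 755 and 739 CPM in clone 2, a ratio of 1.08. The 2 MER9 names summed were at 875 (no dox) and 828 CPM (dox) in PB cells, 896 and 909 CPM in clone 1, and 843 and 825 CPM in clone 2. On the TMM scale both clone 1 libraries were below the other 4 for HERVK9I and above them for the summed LTRs. Under total counts and under ACTB and GAPDH scaling they were below the other 4 for both. The internal to LTR ratios of clone 1, 10.99% and 10.98%, were the lowest of the group.

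HML-4 combined an abundant LTR with a scarce internal part. LTR13 was at 959 (no dox) and 1071 CPM (dox) in PB cells, 1139.8 and 1268 CPM in clone 1, and 1072 and 1099 CPM in clone 2. On the TMM scale both PB libraries were below all 4 clone libraries, the one with dox only just, but the difference between EXOSC3r and PB cells without dox had the other sign with total counts and with ACTB and GAPDH scaling. LTR13A, the other LTR of the group, was at 252 (no dox) and 258 CPM (dox) in PB cells, 289 and 287 CPM in clone 1, and 271 and 252 CPM in clone 2, and the 2 LTRs summed were at 1208 (no dox) and 1327 CPM (dox) in PB cells, 1429.9 and 1559 CPM in clone 1, and 1342 and 1352 CPM in clone 2. HERVK13I was at 19.7 (no dox) and 22.6 CPM (dox) in PB cells, 15.6 and 12.3 CPM in clone 1, and 19.5 and 21.7 CPM in clone 2, with clone 1 below the other lines and lowest with dox.

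The LTR of HML-7, MER11D, was at 212 (no dox) and 196 CPM (dox) in PB cells, 197 and 197 CPM in clone 1, and 210.3 and 198 CPM in clone 2. Its internal part, HERVK11DI, was at 63.2 (no dox) and 57.1 CPM (dox) in PB cells, 52.8 and 48.3 CPM in clone 1, and 48.8 and 59.2 CPM in clone 2, highest in the PB library without dox. In HML-10, HERVKC4 was at 77.1 (no dox) and 88.8 CPM (dox) in PB cells, 69.6 and 84.3 CPM in clone 1, and 82.0 and 80.9 CPM in clone 2. On the TMM scale HERVKC4 was higher with dox in PB cells and clone 1 but not in clone 2. Under total counts and under ACTB and GAPDH scaling it was higher with dox in all 3 lines. LTR14, the LTR of HML-10, was at 86.6 (no dox) and 82.9 CPM (dox) in PB cells, 76.8 and 72.8 CPM in clone 1, and 72.8 and 83.0 CPM in clone 2. For HML-1, LTR14A and LTR14B summed were at 208 (no dox) and 198 CPM (dox) in PB cells, 236 and 226 CPM in clone 1, and 211 and 217 CPM in clone 2. For HML-9, LTR14C was at 74.9 (no dox) and 80.9 CPM (dox) in PB cells, 56.7 and 55.2 CPM in clone 1, and 67.8 and 69.2 CPM in clone 2, and both PB libraries were above every clone library.

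Over the 6 libraries, the median highest over lowest ratio was 1.25 for the 30 members. For the 13 members with a mean of at least 100 CPM it was 1.14, beside 1.17 for all 253 sequences of that level. HERVK of HML-2 had a ratio of 1.94 and ranked 11 of the 253. It was at 6220.4 (no dox) and 4100.4 CPM (dox) in PB cells, 5050.0 and 7973 CPM in clone 1, and 6437 and 4171 CPM in clone 2. LTR5_Hs was at 1423 (no dox) and 1245 CPM (dox) in PB cells, 1343 and 1987 CPM in clone 1, and 1553 and 1193 CPM in clone 2, and its dox libraries lay on the same side in each line. Both of these HML-2 parts were lower with dox in the PB line and in clone 2, but higher in clone 1. HERVK11I of HML-8 lay the other way in each of the 3 lines. The other LTR5 names did not share the order of HERVK. On the TMM scale LTR5 had log2 changes of 0.21 (PB), -0.11 (clone 1) and 0.091 (clone 2), and LTR5B 0.090, -0.069 and 0.019. LTR5A was lower with dox in each line. LTR5, LTR5B, HERVK13I, LTR14A, LTR14C and LTR22B1 thus had the signs of HERVK11I. The share of all tested sequences with these signs was not counted. These directions of HERVK and HERVK11I were the same under all 4 scalings. The Alu share, given above, lay on the same side as HERVK in each line, and its part in either was not tested. The opposite order of HERVK11I and HERVK was noticed after the values were seen, and no test was made of it.

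In PB cells, which lack the transgene, dox was compared with no dox with 1 library in each arm. All lines carried the hairpin, so an effect of dox itself and one of the hairpin cannot be told apart here. HERVK11I of HML-8 had the highest log2 change of the members, 0.41 ± 0.17 (SE; edgeR adjusted p = 1.00), and HERVK3I of HML-6 the lowest, -0.39 ± 0.13 (adjusted p = 1.00). MER11C, an HML-8 LTR, had 0.19 ± 0.093 (adjusted p = 1.00). None of the members passed: 0 of 30 had an adjusted p under 0.05 (edgeR quasi-likelihood test, Benjamini-Hochberg over all 699 tested sequences), where 0.858% of all tested sequences did. At an unadjusted p under 0.05 there was 1 member, HERVK3I (all tested: 4.01%), and DESeq2 called 0, with 0 at that unadjusted threshold. Of the members 15 were higher and 15 lower, with a median log2 change of -0.0093, beside 0.0037 for all tested sequences. The median was -0.078 for the 7 internal parts and 0.016 for the 23 LTRs. When the members were summed into 16 group parts before the fit, 0 parts were called. With the line as a replicate block, 7 of all 699 single sequences were called, and the total for the summed table is not given here. In that fit the HML-6 internal part, which is HERVK3I alone, passed in the summed table (-0.39 ± 0.063, edgeR adjusted p = 0.017). It did not pass in the table of single sequences (adjusted p = 0.087). Over its 11 alternatives in the summed table its adjusted p lay between 0.017 and 1.00.

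The same contrast in EXOSC3r cells, where the transgene is not a target of the hairpin, gave small differences. LTR22B of HML-5 had the highest log2 change, 0.44 ± 0.21 (SE; edgeR adjusted p = 1.00), from 13.3 ± 1.67 to 18.1 ± 0.0885 CPM (SD, n = 2 clones). LTR3A of HML-6 had the lowest, -0.28 ± 0.19, and HERVK3I had -0.15 ± 0.095 (both adjusted p = 1.00). In this unpaired fit the size of both depended on single libraries. LTR3A was at -0.0026 and HERVK3I at -0.037 without the untreated clone 1 library, and at -0.51 and -0.26 without that of clone 2. Within clone 1 and clone 2 the TMM-scaled log2 change was -0.35 and -0.18 for LTR3A, and -0.19 and -0.10 for HERVK3I. With the line as a replicate block they were at -0.27 ± 0.061 and -0.15 ± 0.042 (SE; edgeR adjusted p = 0.32 and 0.49). HERVK11I averaged 708 ± 26.8 CPM untreated and 758 ± 137 CPM with dox, so the clones differed more with dox than without. No member passed, 0 of 30 (edgeR), where 0.143% of all tested sequences did. None had an unadjusted p under 0.05 by edgeR or by DESeq2 in these unpaired fits (all tested, edgeR: 3.15%). Of the members 19 were higher and 11 lower, with a median log2 change of 0.021, beside 0.0052 for all tested. Both clones with dox lay above both without for 2 of 30 members, LTR22A and LTR22B, against 15.3% of all tested sequences. They lay below both for 0 members, against 14.7%. Counting all 3 lines, 6 of 30 members were higher with dox in each, namely LTR13, LTR22, LTR22B, LTR22C, LTR3 and MER11C, against 16.6% of all tested. HERVK3I, LTR3A and MER11B, 3 of 30, were lower in each, against 15.9%. The first share, 20%, is near its background and the second, 10%, is below its own. Only LTR22B was higher in each line under all 4 scalings, and no member was lower in each under all 4. The share of all tested sequences with either pattern was not counted, so these counts have no background here. Under single scalings, 9.44% to 16.6% of all tested sequences were higher in each line and 6.29% to 17.9% lower.

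**Figure D3:**
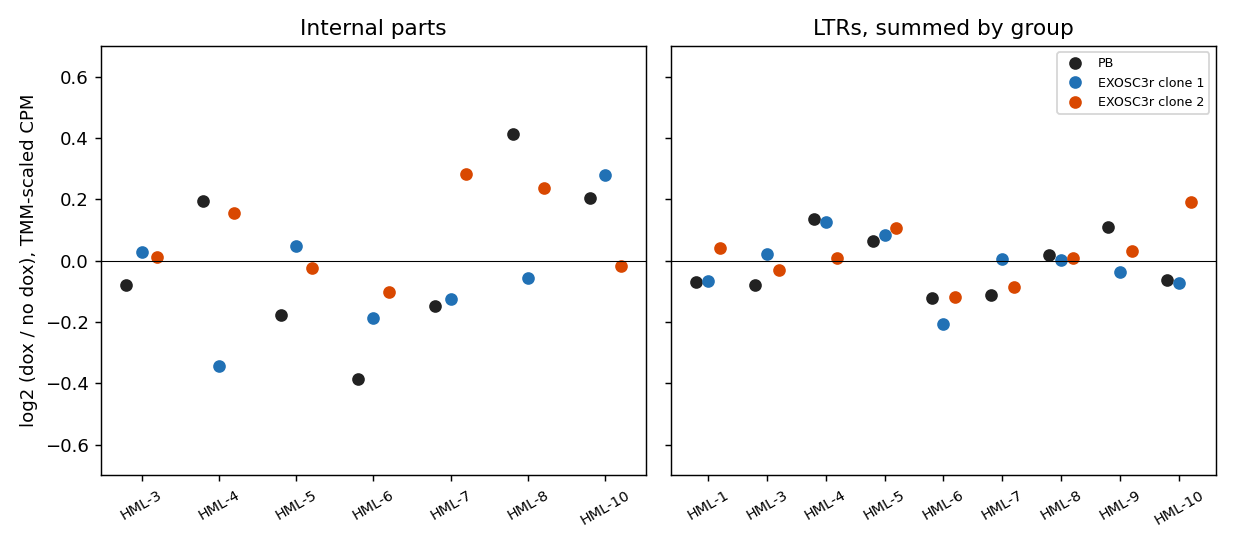
Log2 ratio of TMM-scaled CPM with dox to that without, in each line, for the 7 internal parts among the members (left) and the LTRs summed by group (right); 1 point per line. The internal parts spread from -0.39 to 0.41, and the summed LTRs from -0.21 to 0.19.

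The response to dox was compared between PB and EXOSC3r cells by the interaction term. The transgene goes with the cell line, so its effect and a difference between lines cannot be told apart here. The same holds for the comparisons of EXOSC3r with PB cells below. The log2 change of HERVK11I in PB cells minus that in EXOSC3r cells was 0.31 ± 0.21 (SE). It was -0.19 ± 0.11 for HERVK22I of HML-5 and -0.24 ± 0.16 for HERVK3I (edgeR adjusted p = 1.00 for each of the 3). Leaving out 1 clone library at a time moved the difference to between 0.15 (without clone 1 with dox) and 0.51 (without clone 2 with dox) for HERVK11I. For HERVK3I it moved to between -0.35 and -0.12 (without the untreated library of clone 1 or clone 2). No member passed, 0 of 30 (edgeR; 0.0% of all tested), with 0 at an unadjusted p under 0.05 (all tested: 1.29%) and 0 by DESeq2 at either threshold. Of the members 14 had a higher and 16 a lower change in PB cells, with a median of -0.015, beside -0.0086 for all tested. The median SE of a member's difference was 0.24, wider than most of the differences themselves, so that the missing calls do not show equal responses.

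With the hairpin induced in both, EXOSC3r cells were compared with PB cells. LTR22B differed by -0.50 ± 0.24 (EXOSC3r minus PB, log2, SE; edgeR adjusted p = 0.70). LTR14C of HML-9 differed by -0.38 ± 0.20 (adjusted p = 0.72) and HERVK11I by -0.31 ± 0.15 (adjusted p = 0.70), all 3 lower in EXOSC3r cells. No member passed, 0 of 30 (edgeR), where 1.0% of all tested sequences did. No member had an unadjusted p under 0.05 by edgeR or DESeq2, against 7.58% of all tested by edgeR. The median difference of the members was 0.049, with 18 higher and 12 lower, beside 0.0058 for all tested. This median was 0.0021 without clone 1 with dox and 0.10 without clone 2 with dox, so it rested on single libraries. LTR14C was at -0.23 and -0.55 without the same libraries. HERVK11I depended on them too: its difference was -0.14 without clone 1 with dox and -0.51 without clone 2 with dox. Either fit left a single EXOSC3r library with dox, so only the sizes are read. HERVK of HML-2 had a difference of 0.57 ± 0.36 (adjusted p = 0.80), the other sign from HERVK11I. This comparison and that of dox in PB cells share the PB library with dox.

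Without dox, EXOSC3r and PB cells were compared as a baseline. LTR22B differed by -0.65 ± 0.25 (EXOSC3r minus PB, log2, SE; edgeR adjusted p = 0.97), a difference of the same sign as with dox. HERVK11DI of HML-7 differed by -0.32 ± 0.19 and LTR13 by 0.21 ± 0.11 (both adjusted p = 0.97), and LTR13 had the other sign with total counts and with ACTB and GAPDH scaling. No member passed, 0 of 30 (edgeR; 0.0% of all tested), and LTR22B was the 1 member with an unadjusted p under 0.05 (all tested: 2.29%). DESeq2 called 0, with 0 at that unadjusted threshold. The median difference of the members was -0.020, with 14 higher and 16 lower, beside 0.011 for all tested. No summed group part passed in any comparison but that of dox in PB cells with the block.

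**Figure D4:**
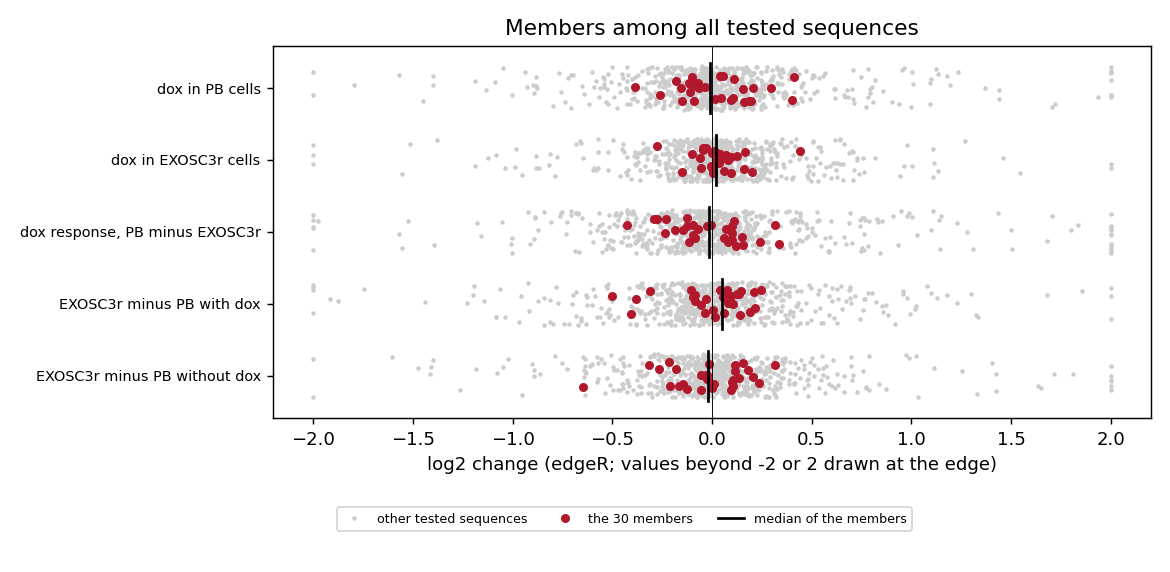
Log2 change of each of the 30 members (red) among the other tested sequences (grey) in the 5 comparisons, with the median of the members as a black bar; vertical scatter is only for visibility, and values outside the axis are drawn at its edge. The member medians lie between -0.020 and 0.049.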

How the data were processed

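The 6 stranded libraries were made from total RNA after removal of ribosomal RNA, per the labels' protocols. The submitters' processing notes name bcl2fastq 2.17, Trimmomatic 0.36 and Salmon 0.13.0; how the index was built, with which options and from which build, is not given in the sources used here. Per the file headers, the deposited tables pair each of 1047 sequences with its lengths, its estimated count and its TPM. TPM as deposited by the authors was left unused. One consensus represents many copies, without a position of its own. Salmon splits reads that match relatives, so a sum over a group is firmer than a single name, and repeats within longer transcripts are counted too.

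After rounding the estimated counts, a sequence entered the tests with 10 counts or more in at least 1 library (699 of the 799 with any). The fit in edgeR 4.0.16 (R 4.3.3) used TMM, the quasi-likelihood test, 4 group means over the 6 libraries, and Benjamini-Hochberg adjustment at 0.05. Its 2 residual degrees of freedom come from the clones, whose spread also stands for that of the single PB libraries (biological coefficient of variation 12.2%) and is all that the p-values measure. SEs are the log2 change over the root of F. No library was a copy of another, since every pair had a chi-square per degree of freedom of at least 22.2.

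The clone numbers were taken as a pairing because a clone's arms are 1 cell line. Only the fit with the line as a replicate block uses this pairing, and the main fit leaves it out. Between the arms, clone 1 minus the clone mean had a Pearson r of 0.68 over the 30 members and 0.15 over all 699 (across sequences, which are not replicates). The fit with the line as a replicate block has 1 residual degree of freedom. It called 0 of 30 members in each comparison, beside 7, 9, 3, 22 and 0 of all tested sequences, in the order of the Results. At an unadjusted p under 0.05 (edgeR quasi-likelihood test) there were 4, 2, 2, 5 and 5 members in that order. The share of all tested sequences at that threshold is not given here for the block.

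Members were grouped by name into HML groups. The text gives per-library values for every internal part, every summed LTR part, the 8 LTRs with the highest mean CPM and, per comparison, the 3 members with the smallest p; any further member named was chosen once its values had been seen. Members, groups and tests were chosen with earlier results of these data known. Alternatives were DESeq2 1.42.0, summed parts, leaving out 1 clone library at a time, the block, and other scalings and filters. The code was tested on simulated counts.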

Additional observations from a re-analysis of the deposited data

How the results depend on the processing

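The count of members called was 0 in all 5 comparisons under every alternative but 1: leaving out each clone library gave 0 to 1 calls for EXOSC3r minus PB with dox, the 1 being HERVK11I without clone 2 with dox. That fit left a single EXOSC3r library with dox, so this call is not read as a result. Summed parts gave 0 calls except with the line as a replicate block, which called 1 for dox in PB cells (HML-6 internal) and changed no other call. Of the log2 changes of named members under alternatives, 162 kept their direction and their side of the threshold, 1 became a call (HERVK11I, above) and 2 reversed, both of LTR13 without dox (-0.070 with total counts and -0.28 with ACTB and GAPDH scaling). Those scalings moved all tested sequences, by up to -0.40 and -0.64 (EXOSC3r minus PB with dox), and relative to that shift the members' median there was 0.023 and 0.021. Unadjusted for it, the member median with total counts was 0.079 for dox in PB cells, -0.016 for dox in EXOSC3r cells, 0.11 for the difference of responses, -0.37 with dox and -0.29 without dox. With ACTB and GAPDH it was 0.16, 0.043, 0.14, -0.61 and -0.49 in that order. DESeq2 size factors and the DESeq2 test gave -0.026 and -0.026 for dox in PB cells and -0.034 and -0.034 without dox, where the stricter filter gave -0.021 and the block -0.022. Leaving out each clone library gave medians of -0.0087 to 0.063 (dox in EXOSC3r cells), -0.059 to -0.0045 (difference), 0.0021 to 0.10 (with dox) and -0.020 to 0.0016 (without dox). With length in place of effective length the internal to LTR ratio was 7.88% in HML-1, 25.6% in HML-2, 17.8% in HML-3, 25.7% in HML-5, 10.7% in HML-6, 3.24% in HML-7, 3.20% in HML-8, 2.77% in HML-9 and 10.7% in HML-10, so that HML-5 then stood level with HML-2. With the LTR14 names and their internal parts pooled, the ratio in place of those of HML-1, HML-9 and HML-10 was 5.39%. The causes of these moves were not tested. Low counts limit HERVK13I, LTR22B, LTR22C2 and LTR3 most, with under 150 counts in each library.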
